A study of Mus musculus with 8 samples.

Results

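The genes described here are 33 cell cycle genes whose transcripts mark dividing cells, taken by name from a list of replication, mitosis and proliferation genes. A probe set was counted as a gene's when the deposited annotation gave it that gene's Entrez identifier and no other. All 33 genes were found, with 70 probe sets, among 20665 genes represented in this way on the Affymetrix Mouse430_2 array. For description, 14 of the 33 were listed as genes of the G1/S transition and S phase and 19 as genes of G2 and mitosis (G2/M). The split is not strict, as Ccna2 of the second list acts in S phase too.

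The study used 8 arrays of mouse regulatory T cells (Treg cells), the CD4+CD25+ T cells that express the transcription factor Foxp3 and restrain immune responses. Cells were sorted by red (RFP) and green (GFP) fluorescence into 2 populations: GFP-RFP+ cells carry the label peripherally induced Treg, and GFP+RFP+ cells the label thymically induced Treg. The 4 groups are GFP-RFP+ and GFP+RFP+ cells of spleen and GFP-RFP+ and GFP+RFP+ cells of lymph nodes. All cells came from untreated mice aged 14 to 17 weeks, with the organs of 20 mice pooled before sorting and 50 ng of RNA labelled. The labels state neither the strain nor the reporter alleles. Each group has 2 arrays, which the labels name technical replicates. The arrays of a group therefore show the spread of the measurement and not the spread between mice or sorts, and p-values measure only the spread between these samples.

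A dividing cell passes through G1, copies its DNA in S phase and separates the copies in mitosis. At the G1/S transition, cyclin E with its kinase and the release of E2F factors from the RB family turn on genes for nucleotide synthesis and DNA replication. Later in the cycle, complexes bound to CCAAT boxes and to the element called CHR turn on genes of the mitotic spindle, the kinetochore and cytokinesis. Treg cells at rest divide rarely, while activated Treg cells can divide in the body.

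RefSeq's promoter table of GRCm38.p6 (300 bases each, most of them before the start site) held 28 promoters of 27 of the 33 genes. It was searched on both strands for the CHR TTTGAA, for the E2F sites TTTCCCGC, TTTGGCGC, TTTCGCGC and TTTGCCGC, and for the CCAAT box CCAAT, each counted on its own, so that a base may belong to matches of more than 1 motif. The CHR occurred in 10 of 15 promoters of the G2/M genes (66.7%), in 1 of 13 of the S phase and G1/S genes (7.69%) and in 17.9% of all 32851 promoters. An E2F site occurred in 1 of 15 promoters of the G2/M genes (6.67%), in 5 of 13 of the S phase and G1/S genes (38.5%) and in 2.26% of all promoters. A CCAAT box occurred in 86.7% of the G2/M promoters, 69.2% of the S phase and G1/S promoters and 37.4% of all promoters. The matches describe letters in these windows and not bound sites. The 4 promoters below belong to genes with large differences between the populations in the values that follow, and the motifs found are in capitals.
Cdc6, chr11:98907901-98908200, plus strand: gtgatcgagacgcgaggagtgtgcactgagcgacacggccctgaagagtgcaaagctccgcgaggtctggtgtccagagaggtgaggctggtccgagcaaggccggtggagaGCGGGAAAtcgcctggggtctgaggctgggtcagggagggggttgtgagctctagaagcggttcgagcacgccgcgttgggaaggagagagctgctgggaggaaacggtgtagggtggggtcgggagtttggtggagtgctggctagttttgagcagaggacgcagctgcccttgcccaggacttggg
Rrm2, chr12:24708004-24708303, plus strand: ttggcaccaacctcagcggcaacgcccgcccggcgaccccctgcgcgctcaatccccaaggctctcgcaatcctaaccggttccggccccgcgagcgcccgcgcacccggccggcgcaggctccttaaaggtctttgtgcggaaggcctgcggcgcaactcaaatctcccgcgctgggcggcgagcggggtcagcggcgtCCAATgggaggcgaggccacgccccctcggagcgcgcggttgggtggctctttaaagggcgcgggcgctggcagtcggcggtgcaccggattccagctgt
Aurka, chr2:172370521-172370820, minus strand: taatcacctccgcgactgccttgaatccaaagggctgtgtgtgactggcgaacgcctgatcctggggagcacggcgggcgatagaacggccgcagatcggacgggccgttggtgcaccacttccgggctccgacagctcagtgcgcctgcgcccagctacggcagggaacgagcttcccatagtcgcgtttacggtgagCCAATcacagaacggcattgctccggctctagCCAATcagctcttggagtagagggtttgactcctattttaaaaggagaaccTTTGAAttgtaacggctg
Ccnb2, chr9:70421505-70421804, minus strand: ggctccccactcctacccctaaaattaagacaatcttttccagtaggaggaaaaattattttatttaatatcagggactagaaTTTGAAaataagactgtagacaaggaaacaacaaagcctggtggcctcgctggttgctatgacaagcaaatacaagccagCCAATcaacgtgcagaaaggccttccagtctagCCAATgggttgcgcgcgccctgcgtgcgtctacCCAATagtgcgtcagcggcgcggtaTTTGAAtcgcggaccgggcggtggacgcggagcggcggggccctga
The window of Cdc6 holds 1 E2F site, in reverse orientation. That of Rrm2 holds 1 CCAAT box and none of the other motifs. The window of Aurka holds 1 CHR and 2 CCAAT boxes, and that of Ccnb2 holds 2 CHRs and 3 CCAAT boxes.

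The values are model-based signals on a linear scale, used here as log2 signals. A log2 signal depends on the probes, so levels of different genes are not compared. The median signal of an array lay between 25.0 and 27.1 over the 8 arrays. The authors' detection calls exist for 8 arrays that carry no sample label. Of the 33 genes, 27 were called present on all 8 arrays and 6 on some (Tyms, Mcm3, Ccnb1, Bub1, Plk1 and Bub1b), which together made 97.0% of calls present, against 58.6% for all genes. Of the Treg and T cell markers, 6 of 7 were called present on all 8 arrays, Foxp3 among them. Foxp3 had log2 signals of 9.97 and 9.82 on the spleen GFP-RFP+ arrays, against 10.63 and 10.48 on the spleen GFP+RFP+ arrays, and 9.95 and 10.08 on the lymph node GFP-RFP+ arrays, against 10.44 and 10.58 on the lymph node GFP+RFP+ arrays. Across organs the log2 difference was -0.57 ± 0.12 for Foxp3, -0.86 ± 0.23 for the interleukin 2 receptor gene Il2ra and 1.45 ± 0.11 for the inhibitory receptor gene Ctla4 (SE), none of which overlapped between populations. The part of these differences in the values of the cell cycle genes was not tested. Some markers of other blood cells were higher in spleen than in lymph nodes: 3 of 5 measured erythroid markers, 5 of 9 myeloid and dendritic cell markers, 2 of 6 B cell markers and 1 of 5 plasma cell markers did not overlap between the 4 spleen and the 4 lymph node arrays, and none of the 5 CD8 T and NK cell markers did, where 3.41% of all genes were higher in spleen without overlap. In bulk samples, fewer cells of a type and less RNA per cell cannot be told apart.

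The first comparison asked how GFP-RFP+ cells differed from GFP+RFP+ cells in the transcripts of the cell cycle. Most of the genes had the higher signal in GFP-RFP+ cells, in spleen and in lymph nodes alike. Of the 33 genes, 26 were higher in both organs (78.8%), 4 were lower in both and 3 had opposite signs, while of all 20665 genes 33.2% were higher and 33.3% lower in both. The median log2 difference over the 33 genes, GFP-RFP+ minus GFP+RFP+, was 0.31 in spleen and 0.26 in lymph nodes, against -0.01 and 0.01 over all genes. For the 19 G2/M genes the median was 0.42 in spleen and 0.36 in lymph nodes, and for the 14 S phase and G1/S genes 0.24 in spleen and 0.21 in lymph nodes.

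In spleen, 7 of the 33 genes were more than 1.5-fold higher in GFP-RFP+ cells, where 11.5% of all genes were, and 0 were more than 1.5-fold lower, where 10.5% of all genes were. In lymph nodes 8 were more than 1.5-fold higher, against a background of 11.3%, and 0 were lower, against 10.1%. The spleen count depended on single arrays. It was 4 without the first and 14 without the second array of spleen GFP-RFP+ cells. In both organs 7 genes passed 1.5-fold higher, against 5.03% of all genes: Ccne2, Cdc6, Rrm2, Aurka, Mki67, Birc5 and Ccna2, the last of which lay on the threshold in spleen. None was more than 1.5-fold lower in both, against 3.07% of all genes. The 4 GFP-RFP+ arrays lay above all 4 GFP+RFP+ arrays for 10 genes, which are Ccne2, Cdc6, Rrm2, Pcna, Mcm4, Mcm6, Aurka, Ccnb2, Mki67 and Birc5, against 11.7% of all genes and 21.3% of the genes called present on all arrays. They lay below all 4 for 1 gene, Tyms, against 8.82% of all genes and 14.9% of those called present on all arrays.

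**Figure D1:**
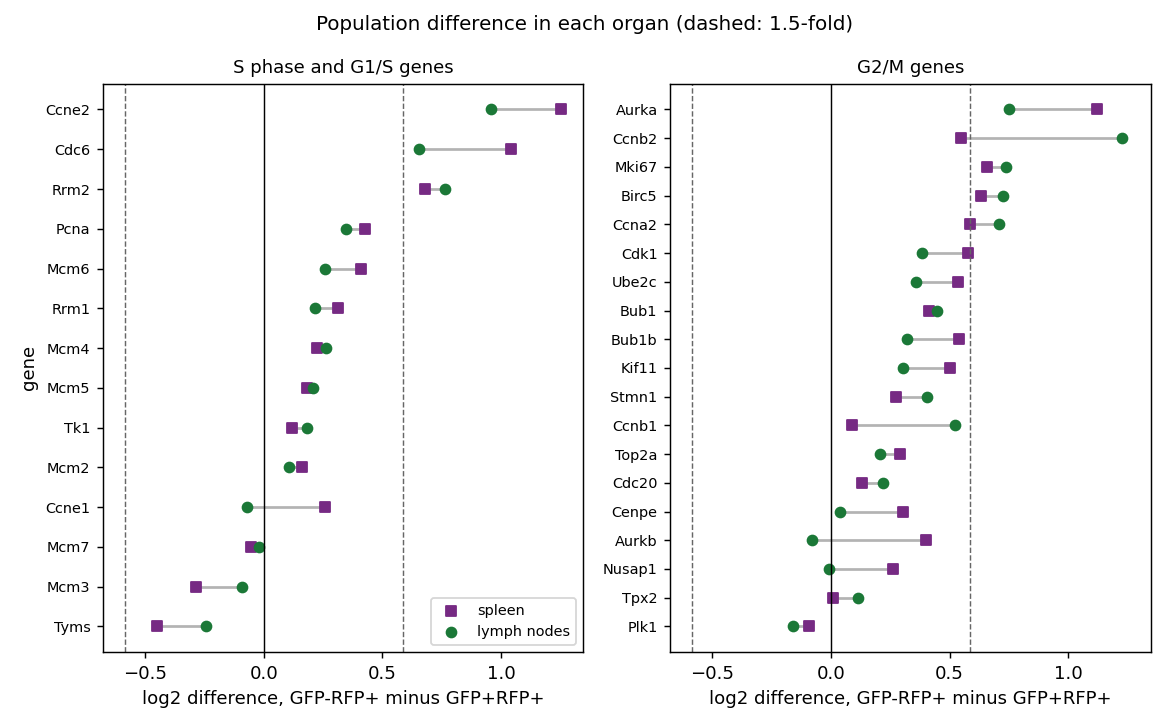
Difference in log2 signal, GFP-RFP+ minus GFP+RFP+, for each of the 14 S phase and G1/S genes (left) and the 19 G2/M genes (right), with squares for spleen and circles for lymph nodes. Positive values are higher in GFP-RFP+ cells, the dashed lines mark 1.5-fold, and no gene lies past 1.5-fold lower in either organ.

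The test across organs used the 4 group means, with population and organ as terms, in limma over all 45037 probe sets, which leaves 1 residual degree of freedom, as only the 2 organs repeat the comparison. No probe set passed the adjusted p threshold of 0.05 (0.0% called), so none of the 33 genes did, with 11 of 33 at an unadjusted p under 0.05 against 16.2% of all probe sets. Limma on the probe sets above the median level, a filter that 32 of the 33 genes passed, called 14 genes higher and 0 lower in GFP-RFP+ cells. With that filter 13.7% of probe sets were called higher and 6.21% lower. In other limma settings the genes called higher were 10 with the 8 arrays as separate samples (6.29% of probe sets), 7 with the replicate number as a block (3.99%) and 17 with a spread that depends on level, which was chosen after seeing the data (9.72%), and 0 were called lower (against 2.61%, 1.29% and 5.02% of probe sets). The 8-array settings measure technical spread only. Below, the filtered test is the one on probe sets above the median level, and the standard errors (SE) are those of the fit over all probe sets.

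Among the S phase and G1/S genes, Ccne2, which encodes cyclin E2, the cyclin that starts S phase with its kinase, had the largest difference. Log2 signals of 6.38 and 6.59 were read on the spleen GFP-RFP+ arrays, against 5.19 and 5.27 on the spleen GFP+RFP+ arrays. In lymph nodes it was 6.74 and 6.35 on the GFP-RFP+ arrays, against 5.48 and 5.69 on the GFP+RFP+ arrays. All GFP-RFP+ arrays lay above all GFP+RFP+ arrays, by 2.39-fold in spleen and 1.94-fold in lymph nodes. Across organs Ccne2 was higher by 1.11 ± 0.14 on the log2 scale (SE, limma, adjusted p = 0.00771 with the filter and 0.282 without it). Ccne1, which encodes the related cyclin E1, was higher by 0.26 in spleen and had a log2 difference of -0.07 in lymph nodes, with arrays that overlapped in both organs.

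Cdc6 loads the MCM helicase onto replication origins. It had log2 signals of 6.12 and 6.02 on the spleen GFP-RFP+ arrays, against 5.15 and 4.91 on the spleen GFP+RFP+ arrays. On the lymph node arrays it was 6.53 and 6.47 in GFP-RFP+ cells, against 5.75 and 5.93 in GFP+RFP+ cells. The populations did not overlap, and Cdc6 was higher by 0.85 ± 0.16 (SE, limma, adjusted p = 0.0172 with the filter and 0.283 without it). Of the 6 MCM helicase subunits themselves, Mcm2, Mcm4, Mcm5 and Mcm6 were higher in both organs and Mcm3 and Mcm7 lower in both, and none passed the test. The other probe set of Mcm4, also called present on all 8 arrays, overlapped between populations. Its log2 difference was 0.14 in spleen and -0.06 in lymph nodes. Mcm6 had log2 signals of 10.41 and 10.45 on the spleen GFP-RFP+ arrays, against 10.01 and 10.02 on the spleen GFP+RFP+ arrays, and 10.47 and 10.43 on the lymph node GFP-RFP+ arrays, against 10.16 and 10.22 on the lymph node GFP+RFP+ arrays. These groups did not overlap, but the difference of 0.33 ± 0.12 missed the threshold (SE, limma, adjusted p = 0.0627 with the filter). Mcm7 had 9.96 and 9.90 on the spleen GFP-RFP+ arrays, against 9.997 and 9.970 on the spleen GFP+RFP+ arrays, and 10.14 and 10.10 on the lymph node GFP-RFP+ arrays, against 10.13 and 10.14 on the lymph node GFP+RFP+ arrays. The populations overlapped in lymph nodes, and Mcm7 differed by -0.04 ± 0.11 (SE, limma, adjusted p = 0.783 with the filter), less than its standard error.

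Rrm2 encodes the small subunit of ribonucleotide reductase, the enzyme that makes deoxynucleotides, and Rrm1 the large subunit. The log2 signal of Rrm2 was 8.52 and 8.48 on the spleen GFP-RFP+ arrays, against 7.87 and 7.77 on the spleen GFP+RFP+ arrays. The lymph node values were 8.96 and 9.01 in GFP-RFP+ cells, against 8.21 and 8.25 in GFP+RFP+ cells. Duplicate arrays of Rrm2 differed by 0.10 at most, and it was higher by 0.72 ± 0.11 (SE, limma, adjusted p = 0.0110 with the filter and 0.282 without it). Rrm1 was higher by 0.31 in spleen and by 0.21 in lymph nodes and did not pass on its chosen probe set (limma, adjusted p = 0.0942 with the filter). Another probe set of Rrm1, also called present on all 8 arrays, did not overlap between populations. It was higher by 0.69 in spleen and by 0.35 in lymph nodes and passed (limma, adjusted p = 0.0419 with the filter).

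Tyms, which encodes the thymidylate synthase that supplies thymidine nucleotides, differed in sign from the other nucleotide genes. Its log2 signal was 4.52 and 4.34 on the spleen GFP-RFP+ arrays, against 4.76 and 5.0 on the spleen GFP+RFP+ arrays. In lymph nodes it was 4.53 and 4.33 in GFP-RFP+ cells, against 4.81 and 4.54 in GFP+RFP+ cells. The groups lay next to each other without overlap, the gene was called present on 7 of 8 arrays and its level kept it out of the filtered test (log2 difference -0.35 ± 0.13, SE, limma, adjusted p = 0.359 over all probe sets). Of its 3 other probe sets, 1 had the opposite sign. Tk1, the thymidine kinase of S phase, was higher by 0.12 in spleen and by 0.18 in lymph nodes.

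Pcna encodes the sliding clamp of DNA polymerases. Log2 signals of 11.42 and 11.33 were read on the spleen GFP-RFP+ arrays, against 10.95 and 10.95 on the spleen GFP+RFP+ arrays. The lymph node values were 11.48 and 11.39 in GFP-RFP+ cells, against 11.07 and 11.10 in GFP+RFP+ cells. The arrays did not overlap, and Pcna was higher by 0.39 ± 0.11 (SE, limma, adjusted p = 0.0403 with the filter and 0.315 without it). On the chosen probe sets, the filtered test thus called 4 of 13 S phase and G1/S genes higher (Ccne2, Cdc6, Rrm2 and Pcna). It called 0 lower, and of probe sets 13.7% were called higher and 6.21% lower.

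Of the 19 G2/M genes, the filtered test called 10 higher in GFP-RFP+ cells and 0 lower, against 13.7% and 6.21% of probe sets. The largest difference was that of Aurka, the kinase that matures centrosomes and builds the spindle. It had log2 signals of 6.23 and 6.17 on the spleen GFP-RFP+ arrays, against 4.83 and 5.33 on the spleen GFP+RFP+ arrays. In lymph nodes it was 6.12 and 5.90 in GFP-RFP+ cells, against 5.14 and 5.37 in GFP+RFP+ cells. The populations did not overlap although the spleen GFP+RFP+ duplicates differed by 0.50, and Aurka was higher by 0.94 ± 0.16 (SE, limma, adjusted p = 0.0137 with the filter and 0.282 without it).

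Ccnb2 encodes a cyclin that drives entry into mitosis with the kinase Cdk1. Its log2 signal was 6.79 and 6.65 on the spleen GFP-RFP+ arrays, against 6.07 and 6.27 on the spleen GFP+RFP+ arrays. The lymph node values were 7.85 and 7.65 in GFP-RFP+ cells, against 6.56 and 6.49 in GFP+RFP+ cells. The difference was 0.55 in spleen and 1.23 in lymph nodes, and Ccnb2 was higher by 0.89 ± 0.24 over both (SE, limma, adjusted p = 0.0363 with the filter and 0.308 without it). The gap between the organs, -0.68 ± 0.19 (SE), did not pass in a limma fit of the 8 arrays with an interaction term (adjusted p = 0.773), a fit that measures technical spread only. Cdk1 itself was higher by 0.48 ± 0.13 (SE, limma, adjusted p = 0.0324 with the filter), whereas Ccnb1, a second mitotic cyclin, was higher by 0.09 in spleen and 0.52 in lymph nodes and did not pass.

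Mki67, whose product Ki-67 coats mitotic chromosomes and serves as the standard marker of cycling cells, was measured by 1 probe set. Log2 signals of 8.39 and 8.21 were read on the spleen GFP-RFP+ arrays, against 7.55 and 7.73 on the spleen GFP+RFP+ arrays. In lymph nodes it was 8.41 and 8.41 in GFP-RFP+ cells, against 7.69 and 7.65 in GFP+RFP+ cells. The populations were apart by 1.58-fold in spleen and 1.67-fold in lymph nodes, without overlap. Mki67 was higher by 0.70 ± 0.11 (SE, limma, adjusted p = 0.0116 with the filter and 0.282 without it).

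Birc5 encodes survivin, a subunit of the chromosomal passenger complex. It had log2 signals of 7.81 and 7.59 on the spleen GFP-RFP+ arrays, against 7.09 and 7.05 on the spleen GFP+RFP+ arrays, and 8.20 and 8.10 on the lymph node GFP-RFP+ arrays, against 7.34 and 7.51 on the lymph node GFP+RFP+ arrays. The populations did not overlap, and Birc5 was higher by 0.68 ± 0.11 (SE, limma, adjusted p = 0.0126 with the filter). Aurkb, the kinase of the same complex, was higher by 0.40 in spleen and had a log2 difference of -0.08 in lymph nodes on its chosen probe set, while its other probe set, also called present on all 8 arrays, was higher by 0.41 in spleen and by 0.29 in lymph nodes. Ccna2 encodes cyclin A2, which acts in S phase and G2. Its log2 signal was 7.32 and 6.90 on the spleen GFP-RFP+ arrays, against 6.41 and 6.63 on the spleen GFP+RFP+ arrays, and 7.63 and 7.35 on the lymph node GFP-RFP+ arrays, against 6.90 and 6.65 on the lymph node GFP+RFP+ arrays. Its arrays did not overlap within an organ but met across organs, and it was higher by 0.65 ± 0.12 (SE, limma, adjusted p = 0.0149 with the filter).

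**Figure D2:**
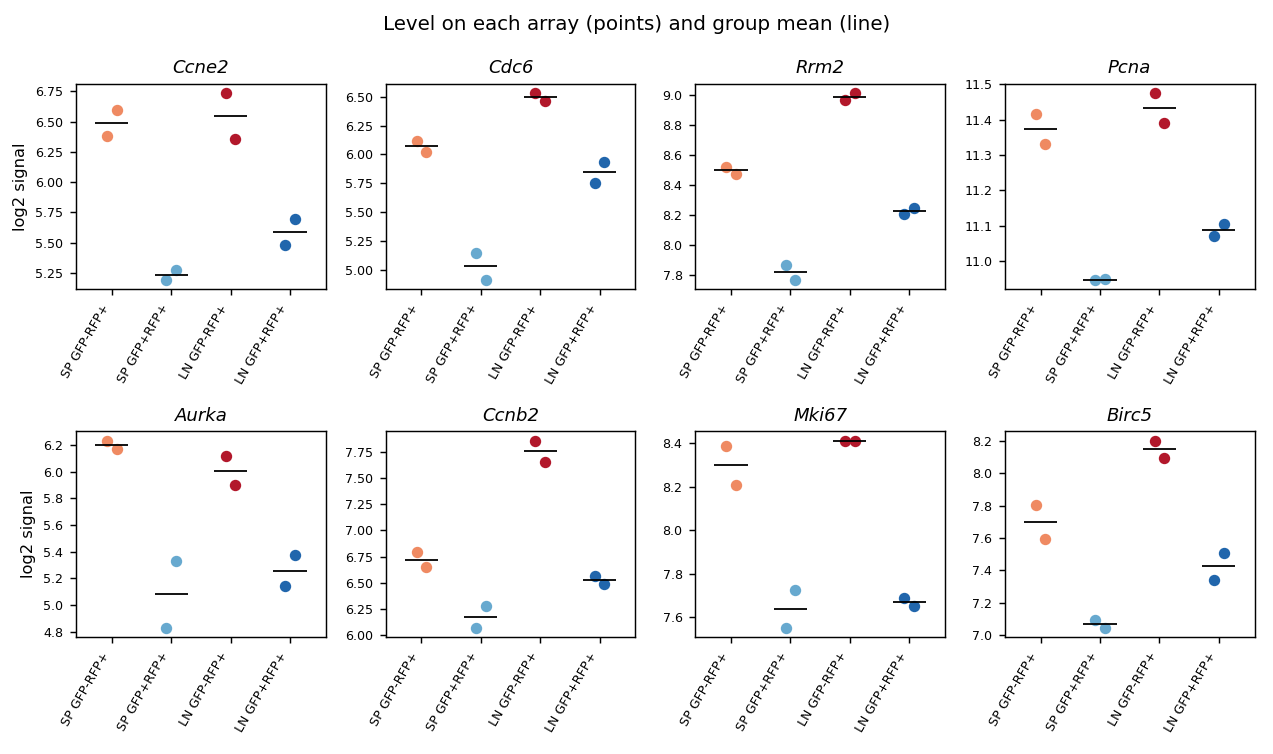
Log2 signal of 8 of the named genes on each array, 2 technical arrays a group (points) with the group mean (line), SP for spleen and LN for lymph nodes. Each panel has its own axis, and in each the GFP-RFP+ points of both organs lie above the GFP+RFP+ points of both organs.

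The other G2/M genes called higher had smaller differences. They were Bub1 and Bub1b, kinases of the spindle checkpoint, with 0.43 each, the spindle motor Kif11 with 0.40, and Ube2c, a ubiquitin-conjugating enzyme of mitotic exit, with 0.45. All 4 overlapped between populations when the organs were put together, and Bub1 and Bub1b were called present on 7 and 6 arrays. Cenpe, Nusap1, Tpx2, Plk1 and Aurkb, which act at kinetochores, on spindle microtubules and as mitotic kinases, did not pass and overlapped between populations with the organs put together. Of these, Plk1 was lower by 0.09 in spleen and by 0.16 in lymph nodes, with overlapping arrays.

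Stmn1, Top2a and Cdc20 were chosen for high signals and did not pass the filtered test on their chosen probe sets. Stmn1 encodes stathmin, which takes apart microtubules. Log2 signals of 9.36 and 9.22 were read on the spleen GFP-RFP+ arrays, against 9.15 and 8.88 on the spleen GFP+RFP+ arrays, and 10.08 and 10.04 on the lymph node GFP-RFP+ arrays, against 9.66 and 9.66 on the lymph node GFP+RFP+ arrays. The populations did not overlap within an organ, and the difference was 0.34 ± 0.12 (SE, limma, adjusted p = 0.0587 with the filter). Top2a, the topoisomerase that untangles chromosomes, had log2 signals of 8.50 and 8.32 on the spleen GFP-RFP+ arrays, against 8.21 and 8.03 on the spleen GFP+RFP+ arrays, and 8.66 and 8.72 on the lymph node GFP-RFP+ arrays, against 8.53 and 8.44 on the lymph node GFP+RFP+ arrays. Cdc20, an activator of the anaphase-promoting complex, had 8.29 and 8.18 on the spleen GFP-RFP+ arrays, against 8.05 and 8.15 on the spleen GFP+RFP+ arrays, and 8.58 and 8.51 on the lymph node GFP-RFP+ arrays, against 8.32 and 8.32 on the lymph node GFP+RFP+ arrays. Within each organ both genes were higher on the GFP-RFP+ arrays on the chosen probe sets. Another probe set of Top2a, also called present on all 8 arrays, did not overlap between populations. Its log2 difference was 1.01 in spleen and 0.45 in lymph nodes. The filtered test called it higher, but it passed the filter only through its level in GFP-RFP+ cells, so this call carries no weight. For Cdc20, another probe set called present on all 8 arrays overlapped in both organs, with 0.13 in spleen and 0.03 in lymph nodes.

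Different probe sets of a gene mostly had the same sign. For the 21 genes with several probe sets, 8 of the 37 further probe sets had a population difference opposite in sign to that of the chosen one, in 7 genes. Of the 16 further probe sets called present on all arrays, 0 were opposite in the difference across organs. Within lymph nodes, such a further probe set was opposite for Mcm4, Mcm7 and Aurkb. The chosen probe sets of Rrm2, Mcm5, Ccne1, Aurkb and Cdc20 have names ending in _x_at, which marks sets with probes that may bind other transcripts.

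The second comparison set spleen against lymph nodes. Most of the cell cycle genes had lower signals in spleen. Of the 33 genes, 28 were lower in spleen (84.8%), against 47.9% of all genes, and the median log2 difference, spleen minus lymph nodes, was -0.21, against 0.01 over all genes. More than 1.5-fold lower were 3 genes, Stmn1, Ccnb2 and Cdc6, against 4.31% of all genes, and 0 were more than 1.5-fold higher, against 6.82%. The 4 spleen arrays lay below all 4 lymph node arrays for 5 genes, Stmn1, Mcm2, Mcm5, Mcm7 and Cdc20, against 2.15% of all genes, and above for 0, against 3.41%.

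Stmn1, whose arrays are given above, had the largest difference between organs, -0.71 ± 0.12 (SE), and Ccnb2 had -0.70 ± 0.24 (SE). Limma over all probe sets called none of the 33 genes (adjusted p = 0.580 for Stmn1 and 0.651 for Ccnb2), and 0.0% of all probe sets, with 8.04% at an unadjusted p under 0.05. The filtered test called 0 of the 33 genes too, with 0.617% of probe sets called higher and 0.0533% lower. With a spread that depends on level, an alternative chosen after seeing the data, limma called 6 of the 33 genes lower in spleen, against 0.409% of probe sets, and 0 higher, against 1.21%. The 6 genes were Rrm2, Mcm5, Top2a, Ccnb2, Birc5 and Stmn1. Aurka and Mki67 had differences between organs of 0.01 and -0.07.

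**Figure D3:**
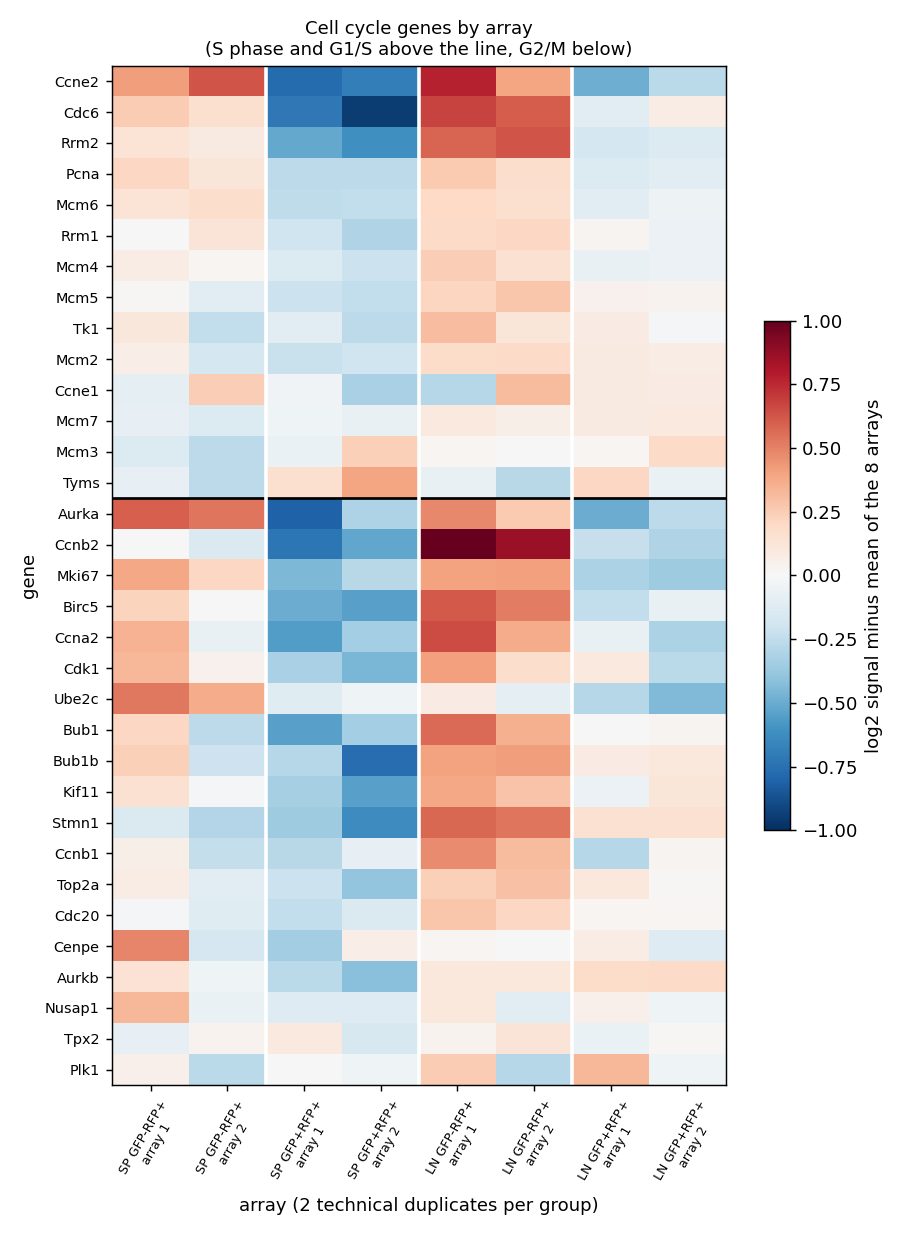
Log2 signal of each of the 33 genes on each of the 8 arrays, minus the gene's mean over the 8 arrays (red above, blue below), with S phase and G1/S genes above the black line and G2/M genes below it. For most genes the lymph node GFP-RFP+ arrays are the reddest and the spleen GFP+RFP+ arrays the bluest. Tyms, Mcm3, Mcm7 and Plk1 are lower in GFP-RFP+ cells of both organs. Ube2c, Aurka, Nusap1 and Cenpe have their highest group mean in spleen GFP-RFP+ cells.

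Put together by array, both gene groups placed the 4 groups in the same order. The mean log2 signal of the 14 S phase and G1/S genes was 8.13 and 8.08 on the spleen GFP-RFP+ arrays, against 7.81 and 7.78 on the spleen GFP+RFP+ arrays. On the lymph node arrays it was 8.30 and 8.27 in GFP-RFP+ cells, against 8.02 and 8.04 in GFP+RFP+ cells. The groups did not overlap. For the 19 G2/M genes the mean was 6.82 and 6.57 on the spleen GFP-RFP+ arrays, against 6.27 and 6.29 on the spleen GFP+RFP+ arrays, and 6.99 and 6.86 on the lymph node GFP-RFP+ arrays, against 6.56 and 6.53 on the lymph node GFP+RFP+ arrays. Here the duplicates of spleen GFP-RFP+ cells were farther apart, by 0.25, and the lower of them lay just above the lymph node GFP+RFP+ arrays. The differences in these means restate the gene differences above and carry no test of their own.

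Summed markers of erythroid, myeloid and dendritic, and B cells were higher in spleen than in lymph nodes, and the erythroid and plasma cell sums were higher in GFP-RFP+ cells in each organ. The summed signal of the 5 measured erythroid markers was 968 and 765 on the spleen GFP-RFP+ arrays, against 360 and 599 on the spleen GFP+RFP+ arrays. The lymph node values were 98.6 and 95.8 in GFP-RFP+ cells, against 82.95 and 65.0 in GFP+RFP+ cells. On each lymph node array 4 of the 5 erythroid markers had signals below 16. Of the 5, 2 were lower in spleen than in lymph nodes. The 9 myeloid and dendritic cell markers summed to 2409 and 1628 on the spleen GFP-RFP+ arrays, against 1277 and 1768 on the spleen GFP+RFP+ arrays, and between 191 and 215 on the lymph node arrays. The first array of spleen GFP-RFP+ cells, which had the higher G2/M mean, also had the higher of both sums. The 6 measured B cell markers summed to 659 to 885 in spleen GFP-RFP+ cells and 519 to 717 in spleen GFP+RFP+ cells, and to 270 to 327 in lymph node GFP-RFP+ cells and 310 to 317 in lymph node GFP+RFP+ cells. The plasma cell marker Jchain had log2 signals of 10.71 and 10.57 on the spleen GFP-RFP+ arrays and 9.28 and 10.22 on the spleen GFP+RFP+ arrays, against 2.61 to 3.57 on the lymph node arrays. The 5 plasma cell markers, which include Xbp1, Prdm1 and Irf4 that activated T cells also express, summed to 4173 to 4273 in spleen GFP-RFP+ cells and 2376 to 2981 in spleen GFP+RFP+ cells, and to 2542 to 2632 in lymph node GFP-RFP+ cells and 1886 to 1912 in lymph node GFP+RFP+ cells. The CD8 T and NK cell markers summed to 180 to 280 over all arrays. On the lymph node arrays Jchain, the erythroid markers Alas2 and Slc4a1 and the myeloid markers S100a8 and S100a9 lay at log2 signals of 3.70 or less. There the myeloid markers Lyz2 and Csf1r lay between 4.23 and 6.13, the erythroid marker Klf1 between 5.43 and 6.14, and the B cell marker Cd79b between 6.40 and 7.28. The B cell marker Cd22 had 6.53 and 6.74 on the lymph node GFP-RFP+ arrays, against 5.61 and 5.52 on the lymph node GFP+RFP+ arrays. Of the 6 measured B cell markers, only 2 were higher in lymph node GFP-RFP+ cells, and the median log2 difference there was -0.09. The part of other blood cells in the values of the cell cycle genes was not tested.

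**Figure D4:**
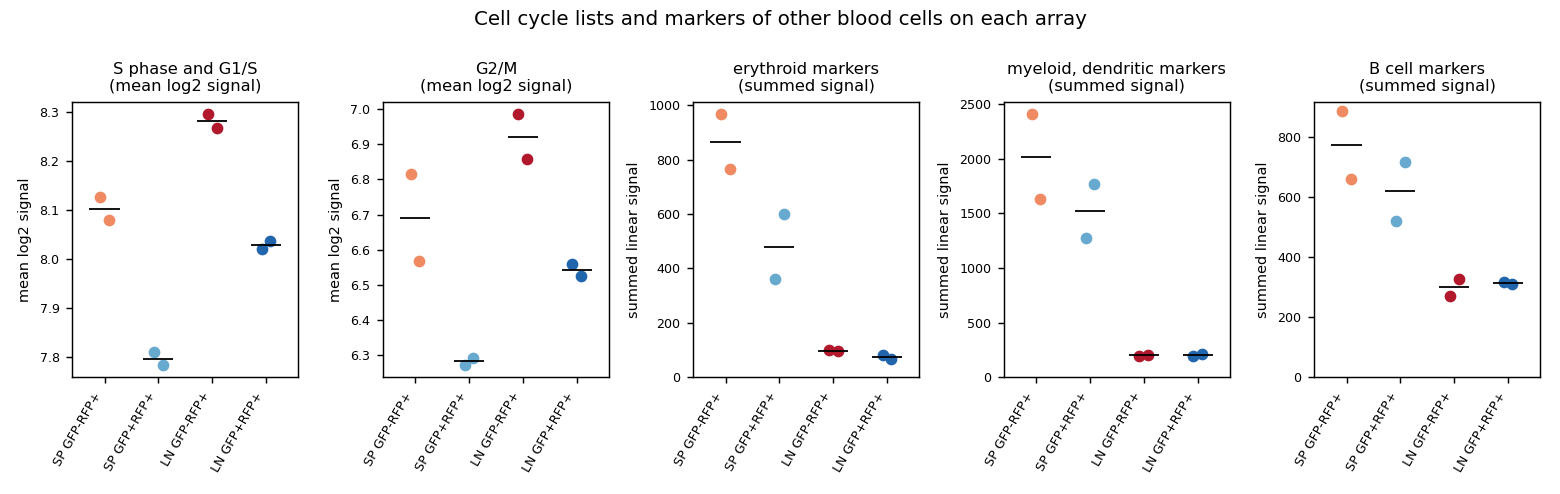
From left to right, mean log2 signal of the S phase and G1/S genes and of the G2/M genes, and summed linear signal of the erythroid, myeloid and dendritic, and B cell markers, on each array (points) with the group mean (line). The gene means are higher in GFP-RFP+ cells of both organs, and the marker sums are higher in spleen, with SP for spleen and LN for lymph nodes.

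Other genes of the cycle were followed in 4 further lists. Of 30 further replication and S phase genes measured, 19 were higher in GFP-RFP+ cells in both organs and 5 lower in both, with a median difference of 0.17 in spleen and 0.16 in lymph nodes. The filtered test called 6 of 30 higher and 0 lower. Of 35 further kinetochore, spindle and cytokinesis genes, 22 were higher in both organs and 9 lower in both, with medians of 0.19 in spleen and 0.23 in lymph nodes, and 5 of 33 were called higher and 0 lower. Of these 5, Anln passed the filter only through its level in GFP-RFP+ cells, so its call carries no weight. Both lists are read against the 13.7% of probe sets called higher and the 6.21% called lower. Of all genes, 33.2% were higher and 33.3% lower in both organs. Both counts called higher are small and not far from the 13.7%, so they are not read as a result about the lists. Among the genes called, Orc1 of the replication list was called present on 1 of 8 arrays and Tacc3 of the spindle list on 2.

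Dbf4, the activator of the kinase that fires replication origins, and Cdt1, which loads the MCM helicase together with Cdc6, had the largest differences of the replication list. The log2 signal of Dbf4 was 8.07 and 8.49 on the spleen GFP-RFP+ arrays, against 7.47 and 7.46 on the spleen GFP+RFP+ arrays, and 8.12 and 8.12 on the lymph node GFP-RFP+ arrays, against 7.44 and 7.39 on the lymph node GFP+RFP+ arrays. Cdt1 had 10.07 and 10.31 on the spleen GFP-RFP+ arrays, against 9.38 and 9.34 on the spleen GFP+RFP+ arrays, and 9.91 and 9.96 on the lymph node GFP-RFP+ arrays, against 9.40 and 9.40 on the lymph node GFP+RFP+ arrays. Neither gene overlapped between populations, and they were higher by 0.76 ± 0.11 and 0.68 ± 0.14 (SE, limma, adjusted p = 0.0105 and 0.0204 with the filter).

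Kif23 and Racgap1 encode the partners of centralspindlin, the complex that organises the midzone of the dividing cell. The log2 signal of Kif23 was 6.79 and 6.95 on the spleen GFP-RFP+ arrays, against 5.30 and 5.97 on the spleen GFP+RFP+ arrays, and 6.65 and 6.58 on the lymph node GFP-RFP+ arrays, against 5.86 and 5.45 on the lymph node GFP+RFP+ arrays. Racgap1 had 6.77 and 6.51 on the spleen GFP-RFP+ arrays, against 5.55 and 5.88 on the spleen GFP+RFP+ arrays, and 6.77 and 6.76 on the lymph node GFP-RFP+ arrays, against 5.90 and 5.87 on the lymph node GFP+RFP+ arrays. No array of one population reached those of the other, and the genes were higher by 1.10 ± 0.14 and 0.90 ± 0.11 (SE, limma, adjusted p = 0.00744 and 0.00686 with the filter).

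The regulators of G1 did not move as 1 group. Of 24 measured G1 cyclins, kinases, inhibitors and E2F and RB factors, 12 were higher in GFP-RFP+ cells in both organs and 10 lower in both. The filtered test called 4 of 22 higher, against 13.7% of probe sets, and 2 lower, against 6.21%. Both counts are small and lie near these shares, so they are not read as a result about the list. The 4 called higher were the inhibitors of cyclin-dependent kinases Cdkn1a, Cdkn1c, Cdkn2b and Cdkn2c. A further inhibitor, Cdkn1b, was higher by 0.12 and was not called (limma, adjusted p = 0.326 with the filter). The 2 called lower were the transcription factor genes E2f2 and Myc. Cdkn2b passed the filter only through its level in GFP-RFP+ cells, so its call carries no weight. Apart from Cdkn1a these genes are named after their values were seen. The log2 difference was -0.50 for Myc and -0.46 for E2f2 (limma, adjusted p = 0.0239 and 0.0263 with the filter).

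Cdkn1a encodes p21, an inhibitor of cyclin-dependent kinases that p53 induces. It had log2 signals of 8.57 and 9.33 on the spleen GFP-RFP+ arrays, against 5.37 and 5.42 on the spleen GFP+RFP+ arrays. In lymph nodes it was 8.07 and 8.14 in GFP-RFP+ cells, against 5.49 and 5.22 in GFP+RFP+ cells. The populations were far apart, by 11.8-fold in spleen and 6.75-fold in lymph nodes, and Cdkn1a was higher by 3.15 ± 0.28 (SE, limma, adjusted p = 0.00408 with the filter and 0.282 without it). Cdkn2a, whose locus encodes the inhibitor p16 and the protein p19Arf, had log2 signals of 4.21 and 3.79 on the spleen GFP-RFP+ arrays, against 2.63 and 2.42 on the spleen GFP+RFP+ arrays, and 4.50 and 4.01 on the lymph node GFP-RFP+ arrays, against 2.54 and 2.34 on the lymph node GFP+RFP+ arrays. It lay below the filter and did not overlap between populations (log2 difference 1.64 ± 0.15, SE, limma, adjusted p = 0.282 over all probe sets). Both genes were called present on 6 of 8 arrays, and which arrays lacked a call is not given.

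The last list held genes associated with quiescence, the resting state of lymphocytes. Of 11, 5 were higher in GFP-RFP+ cells in both organs and 4 lower in both, where 33.2% and 33.3% of all genes were. The filtered test called 3 of 11 higher and 0 lower, against 13.7% and 6.21% of probe sets. Btg1, an antiproliferative gene of resting lymphocytes, had log2 signals of 11.60 and 11.56 on the spleen GFP-RFP+ arrays, against 11.03 and 11.06 on the spleen GFP+RFP+ arrays, and 11.60 and 11.65 on the lymph node GFP-RFP+ arrays, against 10.90 and 11.03 on the lymph node GFP+RFP+ arrays. Tob1, of the same family, had 10.89 and 11.16 on the spleen GFP-RFP+ arrays, against 10.24 and 10.41 on the spleen GFP+RFP+ arrays, and 10.88 and 10.86 on the lymph node GFP-RFP+ arrays, against 10.34 and 10.50 on the lymph node GFP+RFP+ arrays. Neither overlapped between populations, and they were higher by 0.60 ± 0.12 and 0.58 ± 0.13 (SE, limma, adjusted p = 0.0174 and 0.0259 with the filter), in the same direction as Mki67. The third, Klf2, a transcription factor of resting T cells, is named after its value of 0.44 was seen.

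**Figure D5:**
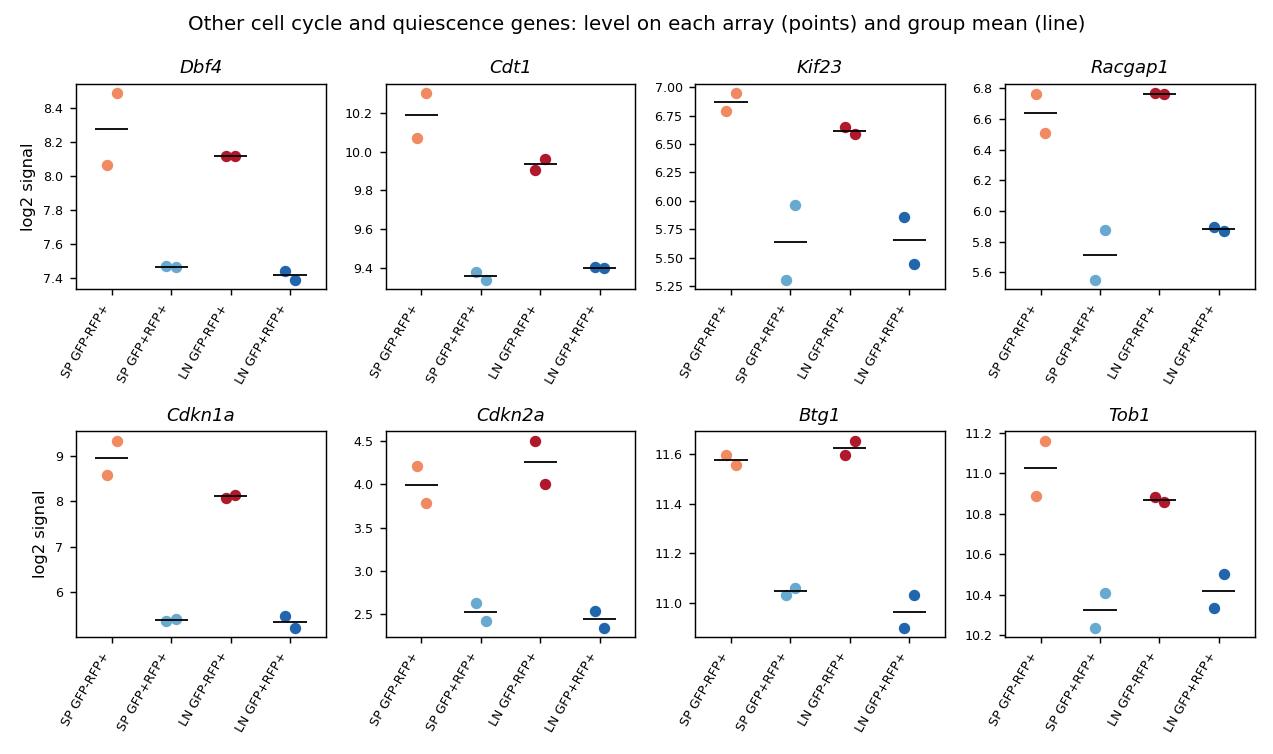
Log2 signal of Dbf4, Cdt1, Kif23, Racgap1, Cdkn1a, Cdkn2a, Btg1 and Tob1 on each array (points) with the group mean (line), SP for spleen and LN for lymph nodes. Each panel has its own axis, and in each the GFP-RFP+ points of both organs lie above the GFP+RFP+ points of both organs, with the widest gap for Cdkn1a.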

How the data were processed

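The labelled value table holds 1 column per sample, and each column equals 1 signal column of the authors' table in all 45101 probe sets. The deposited intensity values are linear signals. Per the file headers, the authors made them with dChip model-based expression with an outlier check, 1 baseline array and no log step. RMA is what the submitters' processing notes name. Detection calls and other annotation, also deposited by the authors, come from a table whose 8 signal and 8 call columns carry no sample label, so calls were counted over arrays.

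Values were log2 transformed without a pseudocount. The 2 technical arrays of a group were averaged, and limma 3.58.1 in R 4.3.3 fitted population and organ over 45037 probe sets, leaving out 64 controls, with Benjamini-Hochberg adjustment at 0.05. A gene was represented by the probe set with the highest mean over the 8 arrays. Named with array values were, in each of the S phase and G2/M lists, the 5 genes with the largest population difference and the 3 with the highest signal, and 2 genes of each further list. The genes, lists and tests were chosen with earlier results of these data known. The number of arrays limits the precision. Within an organ there is 1 sample a group and no test. Alternative fits varied the averaging of arrays, the arrays left out, the scaling, the probe set for a gene, the treatment of dim probe sets and the model of spread. Arrays without overlap were also counted over the genes called present on all arrays. The fits were tested on simulated data.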

Additional observations from a re-analysis of the deposited data

Results flagged for a closer look

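On 1 of its 2 probe sets, Aurkb, the kinase of the chromosomal passenger complex, had population differences of opposite sign in the organs. Its log2 signal was 4.99 and 4.81 on the spleen GFP-RFP+ arrays, against 4.57 and 4.42 on the spleen GFP+RFP+ arrays, and in lymph nodes 4.95 on both GFP-RFP+ arrays, against 5.03 and 5.04 on the GFP+RFP+ arrays. The difference in spleen minus that in lymph nodes was 0.48 ± 0.16 (SE). It attracted attention because every spleen GFP-RFP+ array was higher and every lymph node GFP-RFP+ array lower than the GFP+RFP+ arrays. In a limma fit of the 8 arrays with an interaction term, which measures technical spread only, it did not pass (adjusted p = 0.842). The other probe set, also called present on all 8 arrays, was higher in GFP-RFP+ cells by 0.41 in spleen and by 0.29 in lymph nodes, a gap of 0.12 ± 0.32 (SE). The cause was not tested.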

How the results depend on the processing

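Of the 33 genes, 29 kept the sign of their population difference in every setting tried. In limma, 0 genes were called higher with 4 group means and all probe sets, 10 with the 8 arrays as separate samples, 7 with the replicate number as a block, 14 with the probe sets above the median level and 17 with a spread that depends on level, an alternative chosen after seeing the data. All probe sets called between populations were 0, and 4006, 2382, 4478 and 6638 in the same settings, and between organs 0, and 293, 69, 151 and 731, with 6 of the 33 genes called lower in spleen in the last. Over all probe sets the replicate numbers did not pair the arrays: the difference between first and second arrays correlated between groups by -0.04 to 0.02. Among the 33 genes, Cdk1, Plk1, Tk1 and Nusap1 had the higher signal on the first array in all 4 groups. The share of all genes that did so is not given. The fit with the block called 7 genes, against 10 without it. The median difference in lymph nodes was 0.18 after quantile normalization and 0.34 with the mean of a gene's probe sets. Genes past 1.5-fold higher in spleen were 4 after quantile normalization and 4 to 14 with 1 array left out at a time. The spleen median was 0.30 to 0.46 and the organ median -0.28 to -0.19 with 1 array left out. Signs reversed for Ccne1 (-0.060 with the mean of probe sets), Nusap1 (-0.14, likewise) and Tpx2 (-0.019 after quantile normalization), and with 1 array left out, where Ccne1 had -0.055 to 0.24, Plk1 -0.26 to 0.011 and Tpx2 -0.0037 to 0.12. The causes were not tested. A signal floor of 16 and 1 probe set a gene, also chosen after seeing the data, called 0 genes. With 1 residual degree of freedom, the absence of calls in the unfiltered test says little, and the 8-array fits measure technical spread only.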
